A study of Mus musculus with 24 samples.

Results

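The Cyp4 fatty acid omega-hydroxylases were 8 genes chosen by symbol: Cyp4a10, Cyp4a14, Cyp4a31, Cyp4a12a, Cyp4a12b, Cyp4b1, Cyp4f14 and Cyp4f15. All 8 had an array probe whose RefSeq accession maps to the symbol, all 8 passed the filter on dim probes, and they were 8 of 17736 genes tested. Cyp4f14 and Cyp4f15 lie on mouse chromosome 17 and the other 6 on chromosome 4.

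Kidney RNA of male Crl:CD1(ICR) mice, an outbred stock, was hybridised to 24 single-colour Agilent arrays. The DKD+enarodustat mice (n = 9) had received 90 mg/kg of alloxan intravenously 3 days before grouping and then ate feed with 0.01% enarodustat, an inhibitor of the prolyl hydroxylases that mark hypoxia-inducible factors for destruction. The DKD mice (diabetic kidney disease, n = 9) had received the same alloxan dose and ate normal feed, and the sham mice (n = 6) had received vehicle and ate normal feed. Both alloxan groups were matched on blood glucose and body weight, and all kidneys were taken 16 days after grouping. Alloxan destroys pancreatic beta cells and so models insulin-deficient diabetes. No group received enarodustat without alloxan, and the RNA came from whole renal tissue, in which fewer cells of a type and less RNA per cell cannot be told apart. Levels below are log2 processed signals minus the array's 75th percentile. A level can be set against the same probe on another array but not against another probe. The summed marker levels below add linear signals over probes, so the brightest probe weighs most in them.

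Cyp4 enzymes add a hydroxyl group to the terminal carbon of a fatty acid, which can then be oxidised to a dicarboxylic acid and shortened in peroxisomes. Some of them also turn arachidonic acid into 20-HETE, which constricts renal arterioles and inhibits tubular sodium transport. In mice Cyp4a10 and Cyp4a14 are classic targets of PPAR alpha, the nuclear receptor that senses fatty acids, and Cyp4a31 is their close relative and was grouped with them. Cyp4a12a is the male-biased, androgen-dependent 20-HETE synthase of the mouse kidney and Cyp4a12b is its near-copy. Cyp4b1 is known in mice as an androgen-responsive kidney enzyme that acts on shorter fatty acids and foreign compounds. Cyp4f14 is known for hydroxylating leukotriene B4 and the side chain of vitamin E, and Cyp4f15 is a related enzyme.

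The only upstream sequence shown is that of Cyp4b1, because it was the sole member that both passed the test below and had a window in the RefSeq promoter table (3 of 8 members had one). The 250 bases before its start lie at chr4:115647722-115647971 on the minus strand of GRCm38.p6. The capitals mark TGTTCT, which steroid receptors such as the glucocorticoid receptor bind as an arm of a repeat.

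Cyp4b1: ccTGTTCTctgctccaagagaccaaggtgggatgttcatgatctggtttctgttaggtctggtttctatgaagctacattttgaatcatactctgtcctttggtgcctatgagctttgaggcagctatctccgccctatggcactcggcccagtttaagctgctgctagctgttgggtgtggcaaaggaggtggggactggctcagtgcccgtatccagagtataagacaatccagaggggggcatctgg

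TGTTCT stood at positions -248 to -243 from the start, and 16.0% of 32544 distinct mouse windows of this length held it on either strand. The windows of Cyp4b1, Cyp4f14 and Cyp4f15 were also searched on both strands for AGGTCA (4571 of the 32544 windows), for AGGTCA repeated in the same direction with 1 base between and up to 2 mismatches (3.25%), for AGAACA and TGTTCT as an inverted repeat with 3 bases between and up to 3 mismatches (12.3%), for ACGTG (16.6%) and for TATAAA (12.3%). None of these 5 was found in the windows of Cyp4b1, Cyp4f14 or Cyp4f15, and TGTTCT was not found in those of Cyp4f14 or Cyp4f15.

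The first comparison asked how the diabetic kidney differed from the sham kidney. Cyp4a10, Cyp4a14 and Cyp4a31 rose in DKD kidneys, by 3.08-fold to 6.72-fold. The largest of these, that of Cyp4a14, came from a dim probe and its call was not firm, as given below. Cyp4a12a and Cyp4a12b fell, by 3.20-fold and 3.11-fold, and Cyp4b1 fell by 1.79-fold. Neither Cyp4f14 nor Cyp4f15 passed the test. Thus 6 of 8 members passed at an adjusted p under 0.05 in limma's moderated test, against 11.6% of all genes tested, 3 of them higher (5.47% of all genes) and 3 lower (6.13%). The median log2 change of all genes was -0.01.

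**Figure D1:**
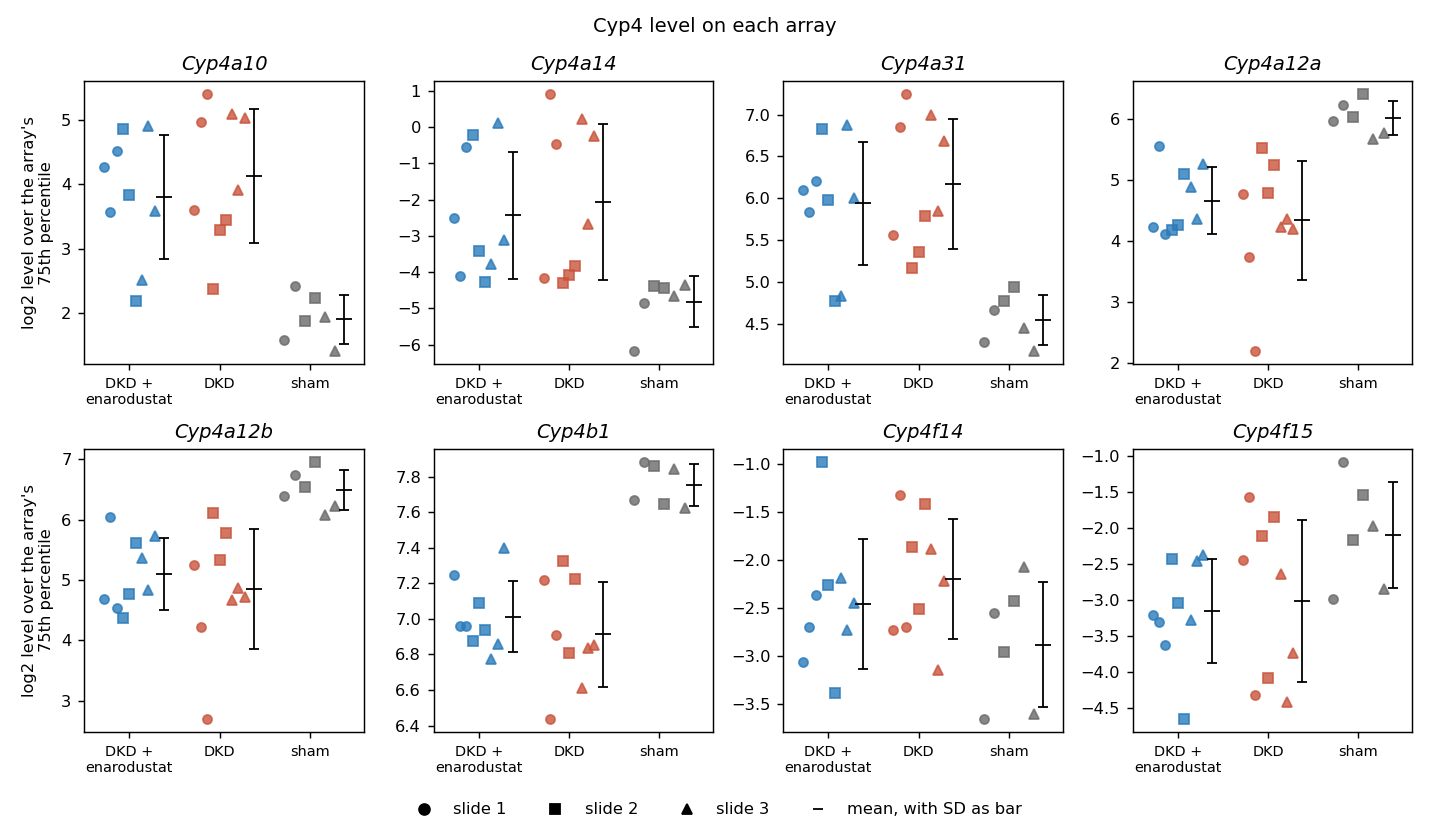
Level of each Cyp4 gene on each array (y axis, log2 over the array's 75th percentile, with its own range in each panel) in DKD+enarodustat (n = 9), DKD (n = 9) and sham (n = 6) kidneys, with the marker giving the slide and the bar the mean and SD. Cyp4a10, Cyp4a14 and Cyp4a31 sit higher in both diabetic groups on most arrays and Cyp4a12a, Cyp4a12b and Cyp4b1 lower, and Cyp4f14 and Cyp4f15 overlap between all groups.

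Cyp4a10 had levels of 2.18, 3.83 and 4.90 (lowest, median and highest) in DKD+enarodustat kidneys, of 2.38, 3.91 and 5.41 in DKD kidneys and of 1.41, 1.90 and 2.42 in sham kidneys. In 8 of 9 DKD kidneys it lay above every sham kidney, and DKD 4 fell among the sham values. The log2 change in DKD relative to sham was 2.22 ± 0.45 (SE, n = 9 and 6, limma adjusted p = 0.00207). The other 2 Cyp4a10 probes changed by 2.06 and 1.55 (limma adjusted p = 0.00249 and 0.0142 over 25727 probes).

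Cyp4a14 had levels of -4.28, -3.10 and 0.10 in DKD+enarodustat kidneys, of -4.31, -2.67 and 0.91 in DKD kidneys and of -6.18, -4.55 and -4.37 in sham kidneys. All 9 DKD values lay above all 6 sham values, as in 1.48% of all genes in this direction. The probe was dim, with processed signals of 10.7 to 324 in DKD+enarodustat, 11.2 to 432 in DKD and 3.63 to 13.4 in sham, and it was not well above background in 1 of 6 sham kidneys. Its log2 change was 2.75 ± 0.87 (SE, limma adjusted p = 0.0410), and the call was not firm. It was lost without any 1 of the 6 sham arrays or of DKD 2, 3, 7 and 9 (log2 change 2.38 to 2.84, limma adjusted p = 0.0539 to 0.0956), and after normexp background correction of the median signals with quantile normalization the change was 1.15 (limma adjusted p = 0.111).

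Cyp4a31 had levels of 4.77, 6.01 and 6.88 in DKD+enarodustat kidneys, of 5.17, 5.85 and 7.25 in DKD kidneys and of 4.17, 4.55 and 4.94 in sham kidneys. The DKD and sham values did not overlap. Its log2 change was 1.62 ± 0.34 (SE, limma adjusted p = 0.00282), and the second Cyp4a31 probe changed by 1.58.

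Cyp4a12a had levels of 4.12, 4.37 and 5.56 in DKD+enarodustat kidneys, of 2.20, 4.37 and 5.52 in DKD kidneys and of 5.67, 6.00 and 6.41 in sham kidneys. Every DKD value lay below every sham value, as in 1.92% of all genes in this direction. The log2 change was -1.68 ± 0.35 (SE, limma adjusted p = 0.00278). Its near-copy Cyp4a12b had levels of 4.37, 4.83 and 6.05 in DKD+enarodustat kidneys, of 2.69, 4.87 and 6.11 in DKD kidneys and of 6.08, 6.46 and 6.96 in sham kidneys. Only DKD 4 reached the sham range, and the log2 change was -1.64 ± 0.37 (SE, limma adjusted p = 0.00477). Probe sequences were not used here, so whether each probe reads only its own copy was not tested. The same holds for Cyp4a10 and Cyp4a31, and for reading of their neighbour Cyp4a32, which was not among the genes tested.

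Cyp4b1 had levels of 6.78, 6.96 and 7.40 in DKD+enarodustat kidneys, of 6.44, 6.85 and 7.32 in DKD kidneys and of 7.62, 7.75 and 7.88 in sham kidneys. The DKD and sham values did not overlap. Its log2 change of -0.84 ± 0.12 (SE) was the smallest in size of the 6 that passed and had the lowest adjusted p (limma, 0.000113). The sham values spanned 1.20-fold and the DKD values 1.85-fold.

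Cyp4f14 had levels of -3.38, -2.45 and -0.98 in DKD+enarodustat kidneys, of -3.15, -2.22 and -1.32 in DKD kidneys and of -3.66, -2.76 and -2.08 in sham kidneys. Its log2 difference was 0.68 ± 0.33 (SE, limma adjusted p = 0.197). Cyp4f15 had levels of -4.65, -3.21 and -2.37 in DKD+enarodustat kidneys, of -4.41, -2.64 and -1.57 in DKD kidneys and of -2.99, -2.07 and -1.08 in sham kidneys, and its log2 difference was -0.91 ± 0.45 (SE, limma adjusted p = 0.209). These 2 estimates had opposite signs and the groups overlapped for both genes. Their processed signals were at most 131 on any array, and both were well above background on all 24.

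**Figure D2:**
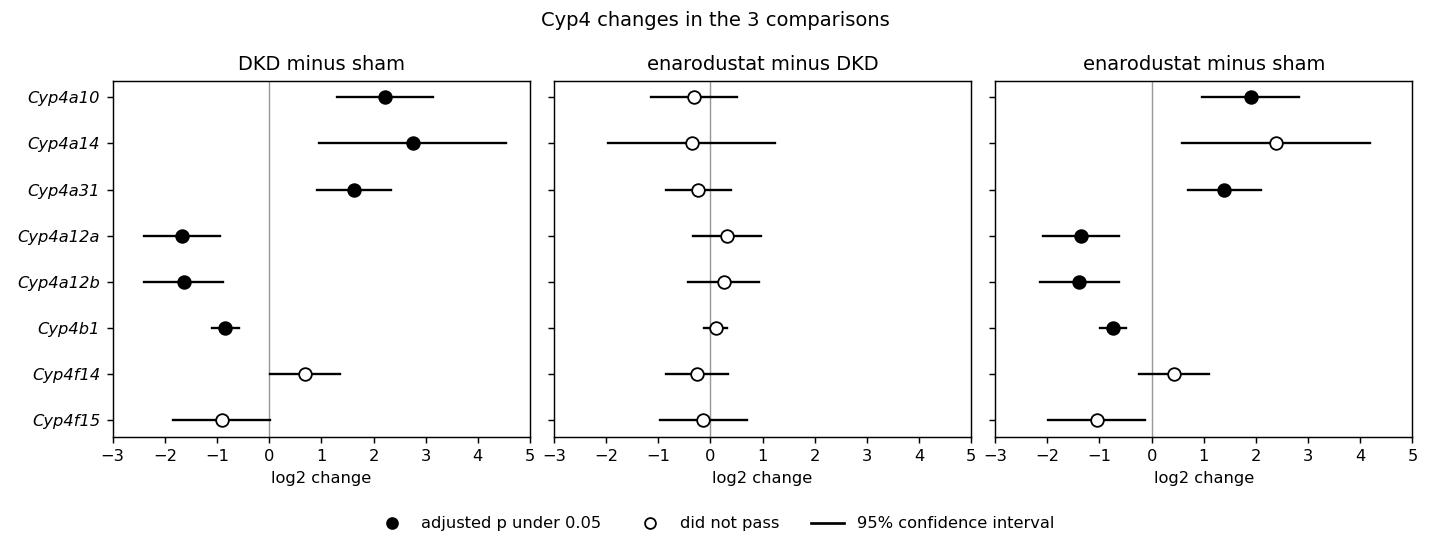
Log2 change of each Cyp4 gene (x axis, with its 95% confidence interval as a line) in the 3 comparisons, filled where the adjusted p was under 0.05. In DKD minus sham 6 genes passed, in enarodustat minus DKD none did, and in enarodustat minus sham 5 did.

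The members that changed also varied more between mice in DKD than in sham kidneys. The SD of Cyp4a12a was 0.54 in DKD+enarodustat, 0.97 in DKD and 0.28 in sham, a ratio of 3.52 between DKD and sham, while the median ratio of all genes was 1.42. For the Cyp4a genes and Cyp4b1 this ratio ran from 2.47 to 3.52. Cyp4f14 had a ratio of 0.96 and Cyp4f15 of 1.52.

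The DKD kidneys fell into separate sets of 4 and 5 in Cyp4a14. DKD 2, 3, 7 and 9 had levels of -0.48 to 0.91 and the other 5 had levels of -4.31 to -2.67. Those same 4 kidneys had the 4 highest levels of Cyp4a10 (4.97 to 5.41, with 2.38 to 3.91 in the other 5) and of Cyp4a31, and the 4 lowest levels of Cyp4a12a (2.20 to 4.24, with 4.37 to 5.52 in the other 5) and of Cyp4a12b. For Cyp4b1, 2 of those 4 kidneys were among the 4 lowest. In DKD+enarodustat, kidneys 3, 4 and 8 stood apart in Cyp4a14 at -0.54 to 0.10, with the other 6 at -4.28 to -2.52, and the same 3 had the highest Cyp4a10 and Cyp4a31. Of these 3, 2 were among the 3 lowest for Cyp4a12a. The high DKD set lay on slides 1 (DKD 2 and 3) and 3 (DKD 7 and 9). DKD 4, 5 and 6, on slide 2, were all in the lower set. The part of the slide in the DKD sets was not tested. Enarodustat kidneys 3, 4 and 8 lay on slides 1, 2 and 3.

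**Figure D3:**
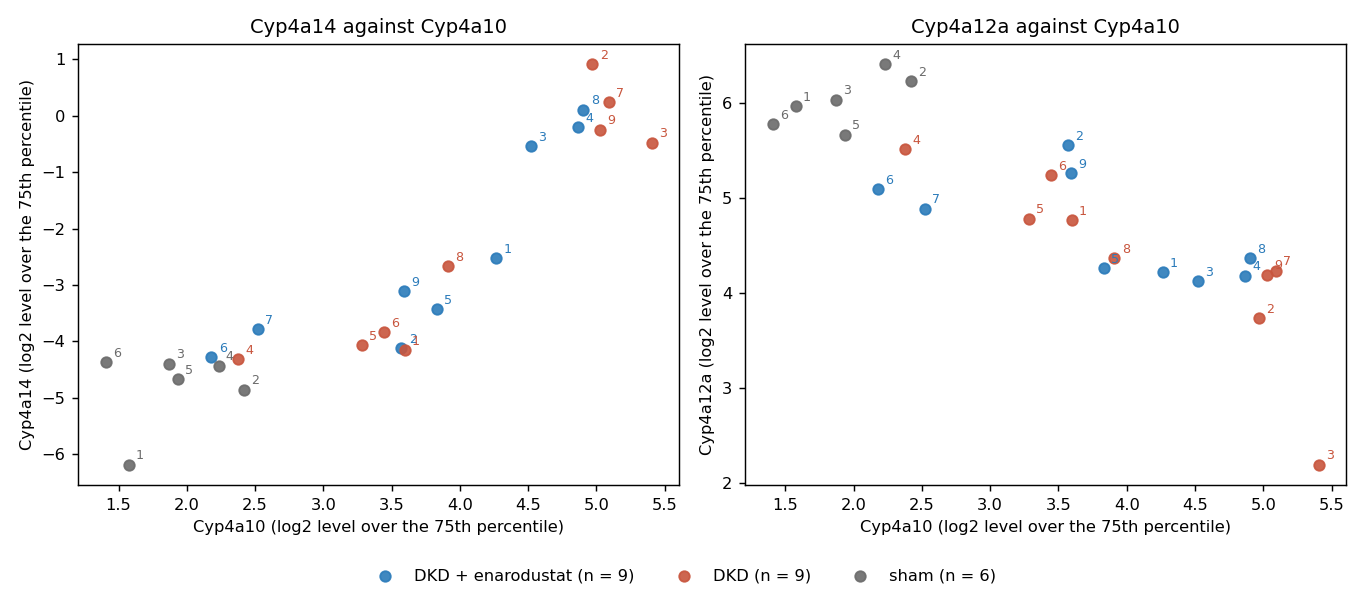
Cyp4a14 (left, y axis) and Cyp4a12a (right, y axis) against Cyp4a10 (x axis), all as log2 levels over the array's 75th percentile, 1 point per array with its replicate number, coloured by group. The 4 DKD arrays 2, 3, 7 and 9 lie at the top right of the left panel and at the lower right of the right panel.

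In DKD the sets of Cyp4a14 levels ran through all the other Cyp4a genes. In DKD+enarodustat they ran through Cyp4a10 and Cyp4a31 but overlapped for Cyp4a12a and Cyp4a12b. The sets held under 6 kidneys each except for the 6 enarodustat kidneys. Of the 6 correlations computed within groups, between pairs of these genes, none is therefore given pooled over the sets, and none was tested within them.

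As a description over the deviations of all 24 arrays from their group means, the genes among the 3 most like Cyp4a10 of all tested included Cyp4a31 (r = 0.97) and Cyp2c23 (r = 0.88), an arachidonic acid epoxygenase. Those among the 3 most like Cyp4a14 included Cyp4a31 and Cyp4a10 (r = 0.87 each). Cyp4a12a was most like Cyp4a12b (r = 1.00), Hapln1 (r = 0.91), which links hyaluronan to proteoglycans, and Cckar (r = 0.89), a cholecystokinin receptor. Cyp4b1 was most like Cyp2j13 (r = 0.90), Gpm6a (r = 0.82) and Ces1f (r = 0.79). These values share arrays, slides and scaling, and the separate sets above enter them.

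Cyp2j13 averaged 5.33 ± 0.28 in DKD+enarodustat, 5.12 ± 0.53 in DKD and 6.20 ± 0.19 in sham kidneys (SD). Cyp2j13 was thus lower in both diabetic groups, like Cyp4b1.

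The arrays lay on 3 slides of 3 DKD+enarodustat, 3 DKD and 2 sham kidneys each. In DKD relative to sham each of the 8 members had the same sign on all 3 slides. Sizes differed: Cyp4a10 changed by 2.66, 0.98 and 3.01 on slides 1, 2 and 3, Cyp4a14 by 4.28, 0.34 and 3.62, and Cyp4a31 by 2.09, 0.58 and 2.20. Cyp4a12a changed by -2.53, -1.04 and -1.46, Cyp4b1 by -0.92, -0.63 and -0.96. None of the 8 passed within a single slide, where 3 DKD stood against 2 sham arrays. With the slide as a block 6 of 8 passed.

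**Figure D4:**
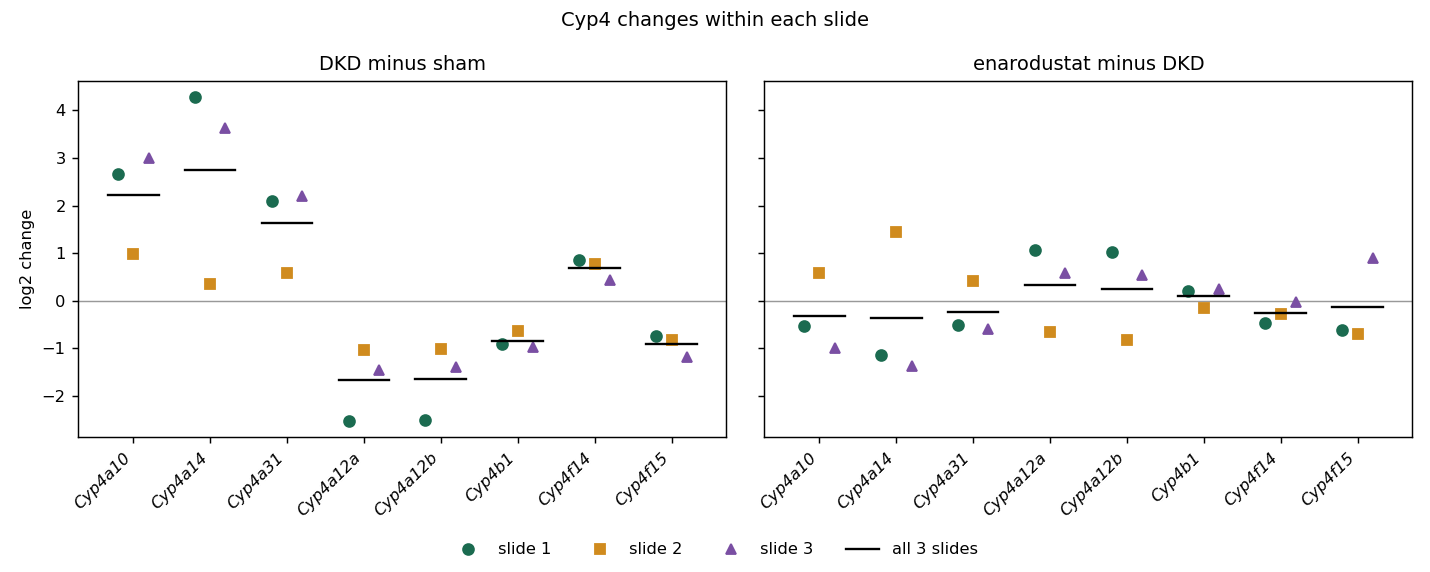
Log2 change of each Cyp4 gene (y axis) within each of the 3 slides (markers) and over all slides (line), for DKD minus sham and enarodustat minus DKD. In DKD minus sham the signs are the same on every slide, with slide 2 closest to 0 for Cyp4a10, Cyp4a14 and Cyp4a31; between enarodustat and DKD the signs on slide 2 are turned for the Cyp4a genes and Cyp4b1.

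The second comparison asked whether enarodustat feed changed these levels in diabetic kidneys. None of the 8 members passed and none had groups that did not overlap, where 0.716% of all genes did (0.609% higher and 0.107% lower) and the groups of 0.135% (higher) and 0.0113% (lower) did not overlap, and the lowest unadjusted p among them was 0.312. Cyp4a10 differed by -0.32 on the log2 scale (95% confidence interval -1.15 to 0.51, limma adjusted p = 0.880), Cyp4a14 by -0.36 (-1.97 to 1.24, 0.946) and Cyp4a31 by -0.23 (-0.86 to 0.40, 0.891). Cyp4a12a differed by 0.32 (-0.32 to 0.97, 0.822), Cyp4a12b by 0.25 (-0.43 to 0.93, 0.886) and Cyp4b1 by 0.10 (-0.13 to 0.32, 0.859). Cyp4f14 differed by -0.26 (-0.86 to 0.34, 0.861) and Cyp4f15 by -0.14 (-0.97 to 0.69, 0.963). These intervals do not show that the groups were alike. All 9 enarodustat arrays sat in the second row of their slides, with 6 DKD arrays in the first row and 3 in the second. With slide row as a term the difference was -0.82 ± 0.56 (SE) for Cyp4a10, -0.91 ± 1.11 for Cyp4a14, -0.64 ± 0.42 for Cyp4a31, 0.79 ± 0.43 for Cyp4a12a and 0.70 ± 0.46 for Cyp4a12b, each over 2 times as large as without the term and with a larger error. That of Cyp4b1 was 0.01 ± 0.15, and none of the 8 passed (lowest limma adjusted p = 0.527).

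Slide 2 had the opposite sign to slides 1 and 3 for the 5 Cyp4a genes and Cyp4b1. Cyp4a10 differed between enarodustat and DKD by -0.54, 0.59 and -1.01 on slides 1, 2 and 3, Cyp4a14 by -1.15, 1.43 and -1.37, and Cyp4a12a by 1.07, -0.67 and 0.57. The slide 2 DKD kidneys, 4 to 6, had the Cyp4a10 levels of 2.38, 3.28 and 3.45, which were the 3 lowest of the DKD group.

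The third comparison set the enarodustat-fed diabetic kidneys against sham. It shares its sham arrays with the first and its enarodustat arrays with the second, so it is no independent repeat of either. Cyp4a10 rose by 1.90 ± 0.45 on the log2 scale (SE, n = 9 and 6, limma adjusted p = 0.00565) and Cyp4a31 by 1.39 ± 0.34 (limma adjusted p = 0.00722). Cyp4a12a changed by -1.35 ± 0.35 (limma adjusted p = 0.0108), Cyp4a12b by -1.39 ± 0.37 (limma adjusted p = 0.0124) and Cyp4b1 by -0.74 ± 0.12 (limma adjusted p = 0.000267), and all 3 fell. Thus 5 of 8 members passed, against 15.5% of all genes, 2 of them higher (8.74% of all genes) and 3 lower (6.75%). Cyp4a14 missed the threshold at 2.39 ± 0.87 (limma adjusted p = 0.0643), although its enarodustat and sham values did not overlap. Cyp4f14 differed by 0.42 (limma adjusted p = 0.418) and Cyp4f15 by -1.05 (limma adjusted p = 0.116).

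In this comparison the values of Cyp4a12a, Cyp4a12b and Cyp4b1 lay below all sham values in 9 of 9 enarodustat kidneys, as in 2.03% of all genes, and those of Cyp4a14 above in 9 of 9, as in 2.91%. All 6 sham arrays sat in the first row of their slides and all 9 enarodustat arrays in the second, with DKD in both. With slide row as a term, carried by the 6 and 3 DKD arrays, the change of Cyp4a10 was 1.14, of Cyp4a31 0.78, of Cyp4a12a -0.66 and of Cyp4a12b -0.71 (limma adjusted p = 0.342, 0.392, 0.484 and 0.475), so these 4 calls were lost, and that of Cyp4b1 was -0.87 (limma adjusted p = 0.0184). In DKD relative to sham, Cyp4a10, Cyp4a31, Cyp4a12a, Cyp4a12b and Cyp4b1 passed with that term.

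Along chromosome 4 the members that fell and rose lay in blocks. From the Cyp4x1 end the order was Cyp4a12a, Cyp4a12b, Cyp4a14, Cyp4a10, Cyp4a31 and Cyp4b1, with other Cyp4 genes and pseudogenes between them. The pseudogene Cyp4b1-ps2, which lies between Cyp4a31 and Cyp4b1 and is named for Cyp4b1, fell: it changed by -1.33 ± 0.41 in DKD relative to sham (SE, limma adjusted p = 0.0368). Its sham means were 1.14, -0.38 and 1.34 on slides 1, 2 and 3. Whether the probes of Cyp4b1-ps2 and Cyp4b1 each read only their own gene was not tested. Cyp4a29 and Cyp4a30b, near Cyp4a12a and Cyp4a12b, did not pass (-0.26 and -0.80, limma adjusted p = 0.728 and 0.358), and in every group both were well above background on only some arrays.

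**Figure D5:**
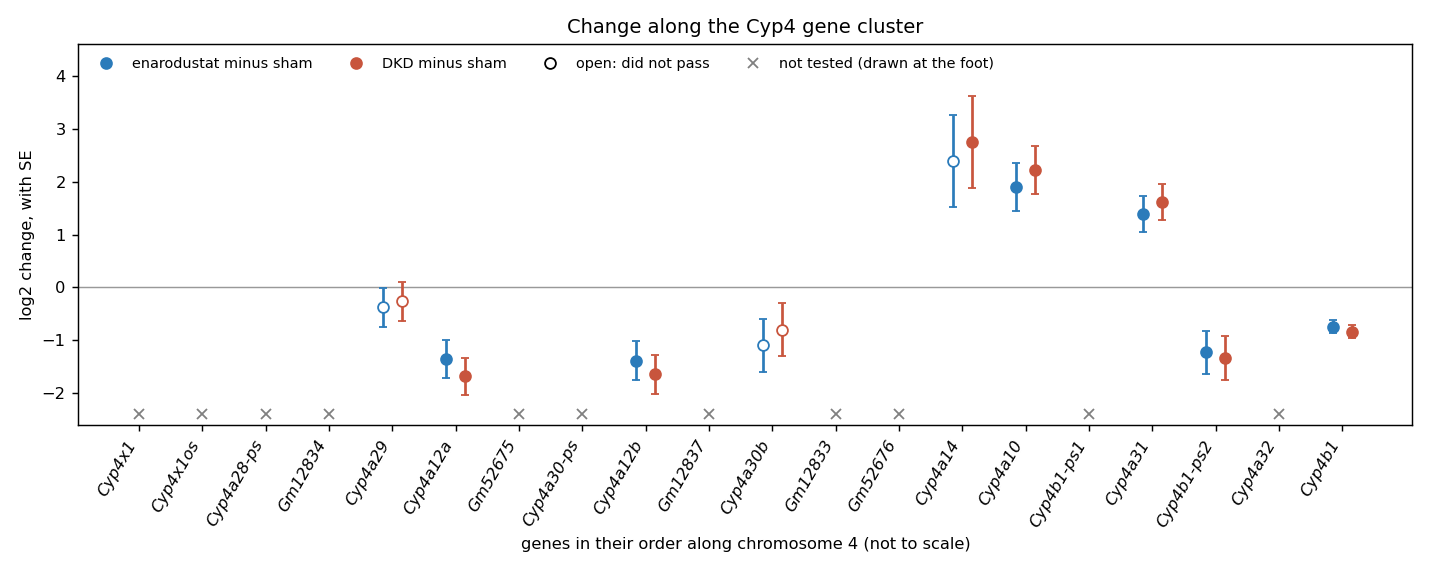
Log2 change with its SE (y axis) of each gene from Cyp4x1 to Cyp4b1 in their order along chromosome 4, not to scale, for enarodustat minus sham and DKD minus sham, with crosses at the foot for genes not tested. Cyp4a12a and Cyp4a12b lie below 0, Cyp4a14, Cyp4a10 and Cyp4a31 above 0, and Cyp4b1-ps2 and Cyp4b1 below 0.

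Of 12 other Cyp4 genes listed, 8 were tested. In DKD relative to sham, Cyp4v3, an omega-hydroxylase of medium-chain fatty acids, rose by 0.44 ± 0.13 (SE, limma adjusted p = 0.0225), and Cyp4f17 fell by 0.80 on the log2 scale (limma adjusted p = 0.0146). The other 6 did not pass, and none of the 8 passed between enarodustat and DKD.

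Nuclear receptors of the PPAR pathway were measured too. In DKD relative to sham the log2 differences were -0.04 for Ppara, -0.73 for Ppard, -0.13 for Pparg and -0.06 for Rxra, the partner of the PPARs (limma adjusted p = 0.937, 0.0774, 0.552 and 0.782). None of these 4 passed. Of 10 receptors and partners of the PPARs, 1 rose, Rxrg, by 1.86 ± 0.32 (SE, limma adjusted p = 0.000492). Srd5a2, which makes dihydrotestosterone, fell in DKD: it averaged -3.15 ± 0.66 in DKD+enarodustat, -3.73 ± 0.70 in DKD and -0.98 ± 1.08 in sham kidneys (SD).

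Of 35 tested PPAR alpha target genes outside the Cyp4 family, 15 rose in DKD, 1 fell and 19 did not pass. Among all genes 5.47% rose and 6.13% fell. The median log2 change of the 35 was 0.41, against -0.01 for all genes. The acyl-CoA thioesterase Acot3 rose by 2.03 on the log2 scale, the fatty acid binding protein Fabp1 by 1.96 and Pdk4, which restrains glucose oxidation, by 1.66. Creb3l3, a fasting-induced transcription factor, is among the 15 with a fitted change of 2.44, but only 2 of 6 sham arrays measured it above background (9 of 9 in each diabetic group), so it passed the filter through the groups where it was high and the size of its change is uncertain. Fabp1 was well above background on all diabetic arrays and on 5 of 6 sham arrays. The fatty acid carrier Cd36 was the 1 that fell. Ehhadh, a peroxisomal beta-oxidation enzyme, and Cpt1a, which admits fatty acids to mitochondria, were among those that did not pass, with Ehhadh at -0.10 (limma adjusted p = 0.569) and Cpt1a at 0.08 (limma adjusted p = 0.672), chosen here for their role after their values were seen. Between enarodustat and DKD none of the 35 passed, with a median of -0.10. Between enarodustat and sham 10 rose and 1 fell, where 8.74% of all genes rose and 6.75% fell.

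Of 15 male-biased, androgen-responsive kidney genes, 6 fell in DKD, none rose and 9 did not pass, with a median of -0.34. Among all genes 6.13% fell and 5.47% rose. Gusb, the beta-glucuronidase long used as a marker of androgen action in mouse kidney, fell by 2.71 on the log2 scale, the organic anion transporter Slco1a1 by 1.61, the polyamine enzyme Odc1 by 1.35, Acsm3 by 1.23 and Nat8 by 0.89. Kap, the kidney androgen-regulated protein, stood at -0.29 (limma adjusted p = 0.114, also chosen after its value was seen). Between enarodustat and sham 8 fell and none rose, where 6.75% of all genes fell. Between enarodustat and DKD none of the 15 passed. Of 8 female-biased genes, 2 rose in DKD, Prlr by 1.17 and Hao2 by 0.98, and 2 fell, Cyp2c69 by 1.35 and Cyp2a4 by 0.70, so this list had no single direction.

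Among 20 tested genes that release arachidonic acid or oxidise it by other routes, 3 rose and 3 fell in DKD. The shares of all genes were 5.47% higher and 6.13% lower, here and for the next list. Cyp2c23 rose by 1.93 and Ephx1, an epoxide hydrolase, by 1.08, and the phospholipase Pla2g4a rose by 0.47. Cyp2j13, a relative of the Cyp2j epoxygenases, fell by 1.08, the phospholipase Pla2g6 by 0.48 and Ephx2, the soluble epoxide hydrolase, by 0.42. Of 25 tested genes for electron donors and for the steps after omega-hydroxylation, 2 rose and 5 fell. Adh1, an alcohol dehydrogenase, fell by 1.41, Sugct, which hands coenzyme A to glutaric acid, by 0.65, and Aldh3a2, the fatty aldehyde dehydrogenase, by 0.47, while the acyl-CoA synthetase Acsl1 rose by 0.61 and the thiolase Acaa1b by 0.50. Por, which feeds electrons to all microsomal P450 enzymes, stood at -0.26 (limma adjusted p = 0.177, chosen after its value was seen). Between enarodustat and DKD no gene of these 2 lists passed.

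Markers of the proximal tubule, a main site of renal Cyp4a enzymes, were well above background on all arrays. The summed level of 8 S3 markers ran from 8.93 to 9.49 in DKD+enarodustat, 8.77 to 9.46 in DKD and 9.26 to 9.67 in sham kidneys. In DKD relative to sham 2 of the 8 rose (Slc5a10 and Slc5a1) and 3 fell (Slc22a7, Atp11a and Slc7a13), beside the falls of Cyp4a12a, Cyp4a12b and Cyp4b1. Of all genes 5.47% rose and 6.13% fell. Slc7a13 is also on the male-biased list above, so its fall is counted in both. Slc27a2, another S3 marker, is also on the list of PPAR alpha targets. Its mean was the highest of the 8 (8.17 in DKD+enarodustat, 8.07 in DKD and 8.41 in sham), so it weighed most in their sum. Slc27a2 did not pass in DKD relative to sham (-0.34, limma adjusted p = 0.0588). The summed level of 8 liver markers ran from 2.92 to 3.60 in DKD+enarodustat, 3.34 to 3.95 in DKD and 2.88 to 3.51 in sham kidneys, none of the 7 tested passed in any comparison, and Ahsg was well above background on 0 arrays. The summed level of 8 adipocyte markers ran from 3.64 to 4.11 in DKD+enarodustat, 3.12 to 3.60 in DKD and 2.49 to 2.94 in sham kidneys. Of its 5 tested genes only Fabp4 passed, in each of the 3 comparisons, with Adipoq well above background on 0 arrays. Fabp4 averaged 3.80, 3.28 and 2.58 in these groups. Lep, with the next brightest probe of those tested, averaged -1.49, -1.43 and -1.44. The sum thus follows Fabp4 and not the list as a whole. Of 6 adrenal markers Star, Cyp21a1 and Nr5a1 were well above background on all 24 arrays, Cyp11b1 on 2 and Cyp11a1 and Cyp11b2 on 0. Of the 3 tested, none passed in DKD relative to sham, and Star rose between enarodustat and sham (0.75, limma adjusted p = 0.0356). The summed adrenal level ran from -1.22 to -0.61 in DKD+enarodustat, -1.17 to -0.37 in DKD and -1.29 to -0.66 in sham kidneys.

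Other renal panels moved beside the members too. In DKD relative to sham 5.47% of all genes rose and 6.13% fell. Of 7 collecting duct markers 4 rose in DKD relative to sham: the water channels Aqp2 (0.91, limma adjusted p = 0.000165) and Aqp3 (0.40), the vasopressin receptor Avpr2 (0.57) and the sodium channel subunit Scnn1g (0.54). The same 4 rose between enarodustat and sham, where Slc26a4 fell, and the summed level ran from 5.03 to 5.51 in DKD+enarodustat, 5.26 to 5.66 in DKD and 4.86 to 5.28 in sham kidneys. Of 7 markers of the thick ascending limb and distal tubule, Slc12a1, Calb1 and Kcnj1 rose in DKD and Umod fell. Of 9 S1/S2 proximal tubule markers, Slc5a12 and Gatm rose in DKD and Slc22a6 fell (-0.75, limma adjusted p = 0.000305). Of 8 leukocyte markers 1 fell in DKD, Csf1r, a macrophage growth factor receptor, by 0.89 on the log2 scale (limma adjusted p = 0.000264), close in size to the change of Cyp4b1, and the summed level ran from 4.15 to 4.79 in DKD+enarodustat, 3.82 to 4.48 in DKD and 4.48 to 4.91 in sham kidneys. Csf1r had the highest mean of the 8 (3.355 in DKD+enarodustat, 3.118 in DKD and 4.007 in sham), followed by Cd74 (3.165, 2.77 and 2.845). Csf1r thus weighed most in that sum, and the other 7 did not pass in DKD relative to sham. Between enarodustat and sham Csf1r and Cd3e fell and Lyz2 rose. None of 8 podocyte and endothelial or 6 fibroblast and smooth muscle markers passed in DKD relative to sham, while the endothelial Cdh5 and Emcn rose between enarodustat and DKD by 0.43 each. The part of these markers in the members' changes was not tested.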

How the data were processed

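Total RNA was labelled with Cy3, per the labels' protocols, and 1 array was scanned per mouse. The deposited scanner files hold background-subtracted processed intensities from Agilent Feature Extraction 12.1.1.1 on array design 074809, per the file headers (11.5.1.1 and limma, per the submitters' processing notes). The authors' deposited table holds log2 values; 762 of its 753816 values lay over 0.05 from normexp and quantile values computed here.

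Here log2 processed signals were scaled to each array's 75th percentile (187 to 388) after control spots and outlier spots were left out. Probes were named through RefSeq accessions (32994 of 56605), the probe with the highest mean stood for a gene, and genes whose probe cleared the scanner software's background test on 6 or more of 24 arrays were tested. No probe was saturated. Limma 3.58.1 in R 4.3.3 fitted the 3 groups together, without covariates, with Benjamini-Hochberg adjustment over 17736 genes at 0.05. The fit was tested on simulated normal data that gave a gene the same spread in all groups and had no slide effect. That test therefore does not cover the unequal spreads of the members. The number of arrays limits the precision.

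The members, gene lists, motifs and tests were chosen with earlier results of these data known. Named genes were all members, other tested Cyp4 genes, a few receptors, up to 5 passing genes per list with the largest change, and the 3 genes most like 4 members. Genes picked outside this rule are marked, and a few results are not reported here.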

Additional observations from a re-analysis of the deposited data

Results flagged for a closer look

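In 24 groups of member levels, each tested for a single array far from its nearest neighbour by Dixon's criterion, 2 stood out, and chance gives about 1 in 20 groups. Cyp4a14 in sham 1 had a level of -6.18, with the next sham array at -4.85, a gap of 0.733 of the sham range. That probe was not well above background on sham 1. Cyp4f14 in enarodustat 4 had a level of -0.98, with the next array of its group at -2.19, a gap of 0.502 of the range.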

How the results depend on the processing

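In DKD relative to sham, Cyp4a10, Cyp4a31, Cyp4a12a, Cyp4a12b and Cyp4b1 passed in 14 of 14 other settings that used all slides (normexp with the 75th percentile, and the first slide row alone, were added after seeing the data) and without any 1 of the 24 arrays, and Cyp4a14 in 5 of 12 settings and 14 of 24. Leaving out 1 array gave 1471 to 2260 genes and 5 to 6 members in DKD relative to sham, 71 to 128 genes and 0 members between enarodustat and DKD (127 with all arrays; lower by over 1.5 times without DKD 7 or enarodustat 4, 5, 6 or 8), and 1967 to 3040 genes and 5 to 6 members between enarodustat and sham. Within slides 1, 2 and 3, DKD relative to sham gave 15, 0 and 9 genes (1656 at an unadjusted p under 0.05 on slide 2), enarodustat relative to DKD 4, 3 and 0 (544 on slide 3), and enarodustat relative to sham 36, 30 and 7, with 0 members each by limma. These fits hold fewer samples. Between enarodustat and DKD the count was 83 with no filter on dim probes, 20 with slide row as a term, 74 with array weights and 47 with only these groups fitted. Its share of higher calls was 85.0%, against 72.1% after normexp and quantile normalization and 69.5% on the authors' deposited values, where Cyp4a14 was not analysed. Slide row as a term left 889 genes and 1 member, Cyp4b1, between enarodustat and sham; the row and these groups cannot be told apart except through DKD. Replicate numbers were not taken as pairs. Of 21 same-number pairs 10 correlated over 0.1. This cannot tell pairing from slide, since some same-number arrays share a slide and same-slide arrays of different groups had a median correlation of 0.19. With the replicate block 1461 genes and 5 members passed in DKD relative to sham, 66 and 0 between enarodustat and DKD, and 2200 and 5 between enarodustat and sham. Normexp on mean signals was not run, since the files used here hold median signals. Cyp4a14, Cyp4f14 and Cyp4f15 lie near background, which limits their changes.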
